A study of Rattus norvegicus with 11 samples.

Results

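The transcripts of 10 hypoxia and glycolysis genes were followed in the rat striatum on day 3 after intracerebral hemorrhage (ICH). The genes were Hif1a, Egln3, Adm, Bnip3, Hk2, Pfkfb3, Pgk1, Ldha, Pkm and Slc16a3, chosen by name for their place in the hypoxia response and in glycolysis. Earlier results of these data were known when they were chosen. They are 10 of the 30560 genes counted. All 10 had reads in every rat and all 10 passed the filter on low counts, which kept 15742 genes. Bulk poly(A) RNA of the striatum was sequenced from 11 adult male Sprague-Dawley rats of 300 to 350 g, each giving one library. The IC group (n = 3, common ICH) received 0.2 U of bacterial collagenase VII-S in 1.0 μL of saline into the right striatum, an enzyme that breaks down the vessel wall so that blood enters the tissue. The IS group (n = 3, severe ICH) received 0.6 U in 3.0 μL. The IS-HA group (n = 3) received the IS dose, and 150 μL of the hematoma, about 75% of its volume, was aspirated through a catheter 6 h later. The Normal rats (n = 2) had neither collagenase nor aspiration. No group is labelled as injected with saline alone, so surgery and hemorrhage cannot be told apart in comparisons with Normal, and aspiration cannot be told apart from the second anesthesia and the catheter in comparisons of IS-HA with IS.

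When oxygen is low, the transcription factor subunit HIF-1α, encoded by Hif1a, escapes hydroxylation by prolyl hydroxylases and destruction through VHL, and with its partner ARNT binds hypoxia response elements. Its known targets include vasoactive peptides, mitophagy genes, nearly every step of glycolysis and the transporter that exports lactate. HIF-1α is governed largely at the level of the protein, which these libraries do not measure. In brain, glycolysis is carried by all cell types to different degrees, and activated myeloid cells are known for raising it.

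The libraries held 6701301 to 18817645 counts assigned to genes, and TPM (the authors' counts scaled for gene length and then to the same sum in every rat) were used for levels. Each of 12 neuronal markers, those of striatal projection neurons included, was above 0 in every rat. The summed TPM of 12 microglia and macrophage markers ranged from 281 to 399 in Normal, 2368 to 3128 in IC, 4135 to 5333 in IS and 3048 to 5042 in IS-HA. Within that list, Tmem119 did not follow the sum, at 31.4 and 21.4 in Normal and 20.3, 23.2 and 17.3 in IS. P2ry12 was 31.8 and 22.7 in Normal and 44.3, 39.8 and 29.1 in IS. The other markers of the list were higher in every IS rat than in both Normal rats. The sum of 8 neutrophil markers ranged from 4.91 to 5.11 in Normal, 84.6 to 268 in IC, 504 to 700 in IS and 169 to 864 in IS-HA. Mpo was at 0 in every Normal, IC and IS rat. The sum of 12 neuronal markers ranged from 7948 to 8212, 3235 to 6374, 1596 to 4126 and 2544 to 4270. Penk (2500 and 2207 TPM in Normal) and Ppp1r1b (2287 and 2102) made up much of it. Penk did not follow the sum in IC replicates 2 and 4, at 2573 and 2471. Syn1 was 198 and 304 in Normal and 201 and 236 in IS-HA replicates 1 and 3. The other neuronal markers were lower in every hemorrhage rat than in both Normal rats. The sum of 8 astrocyte markers ranged from 3126 to 3196 in Normal, 6225 to 8701 in IC, 3577 to 6402 in IS and 4897 to 6508 in IS-HA. Its rise was largely that of Gfap, at 377 and 425 TPM in Normal and 3669, 4334 and 2633 in IS. The astrocyte sum thus does not show how the other markers of that list moved. The sum of 6 oligodendrocyte markers ranged from 16890 to 17281 in Normal, 9843 to 14233 in IC, 5782 to 9847 in IS and 8870 to 13636 in IS-HA. In bulk tissue, a change in the number of cells of a type and a change in RNA per cell cannot be told apart. These marker sums moved with the groups alongside the genes described here, and their part in the results was not tested. IS-HA replicate 2 stood apart and had the fewest counts. The tested genes were cut into 3 equal classes by length, and each rat was set against the mean of the other rats of its group. On the log2 scale, the longest class of IS-HA replicate 2 then lay 0.94 lower than its shortest class. The same difference, longest minus shortest, was between -0.28 and 0.28 in the rats of the other groups. It was 0.47 in each of IS-HA replicates 1 and 3, whose reference includes replicate 2. The macrophage and neutrophil marker sums of IS-HA replicate 2 were the highest in IS-HA, but not all markers of either list followed. Aif1, Tyrobp, C1qa, C1qb, Cd68 and Trem2 were highest in this rat among the IS-HA rats. Csf1r, Itgam, Cx3cr1, P2ry12, Tmem119 and Adgre1 were lowest in it. C1qb stood at 1667 TPM, against 926 and 1018 in the other IS-HA rats, and Itgam at 15.3, against 60.1 and 58.2. The neutrophil sum of this rat was largely that of S100a8 and S100a9, at 542 and 277 TPM. Cxcr2, Elane and Camp were also highest in it among the IS-HA rats. Csf3r (31.0) and Mmp8 (6.60) lay between the other IS-HA rats, and Mpo was at 0. Results that rest on this rat are given with and without it.

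Adm, Hk2 and Slc16a3 rose in every hemorrhage group relative to Normal, Bnip3 fell, and Hif1a, Egln3, Pfkfb3 and Pkm passed the test in no comparison. In edgeR's quasi-likelihood fit, with p-values adjusted by Benjamini-Hochberg over all 15742 genes and called under 0.05, 3 members were higher and 1 was lower in IC than in Normal. Of all genes tested, 13% were higher and 4.64% lower in that comparison. In IS, 5 members were higher and 1 was lower than in Normal, against 24.8% and 24.2% of all genes. In IS-HA, 4 were higher and 1 was lower, against 19.5% and 12.1%. In either direction, 4, 6 and 5 of the 10 members were called, where 17.6%, 49% and 31.5% of all genes were. The median log2 fold change of the members against Normal was 0.36 in IC, 0.63 in IS and 0.49 in IS-HA, and that of all tested genes was 0.00, 0.02 and 0.06. The TPM ranges of 6 members lay above and that of 1 below Normal with no overlap in IC, those of 7 and 1 in IS, and those of 5 and 1 in IS-HA. Of all genes, 34.6% and 25.1%, 37.2% and 35.2%, and 33.3% and 23.5% did so. The 3 comparisons share the same 2 Normal rats.

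**Figure D1:**
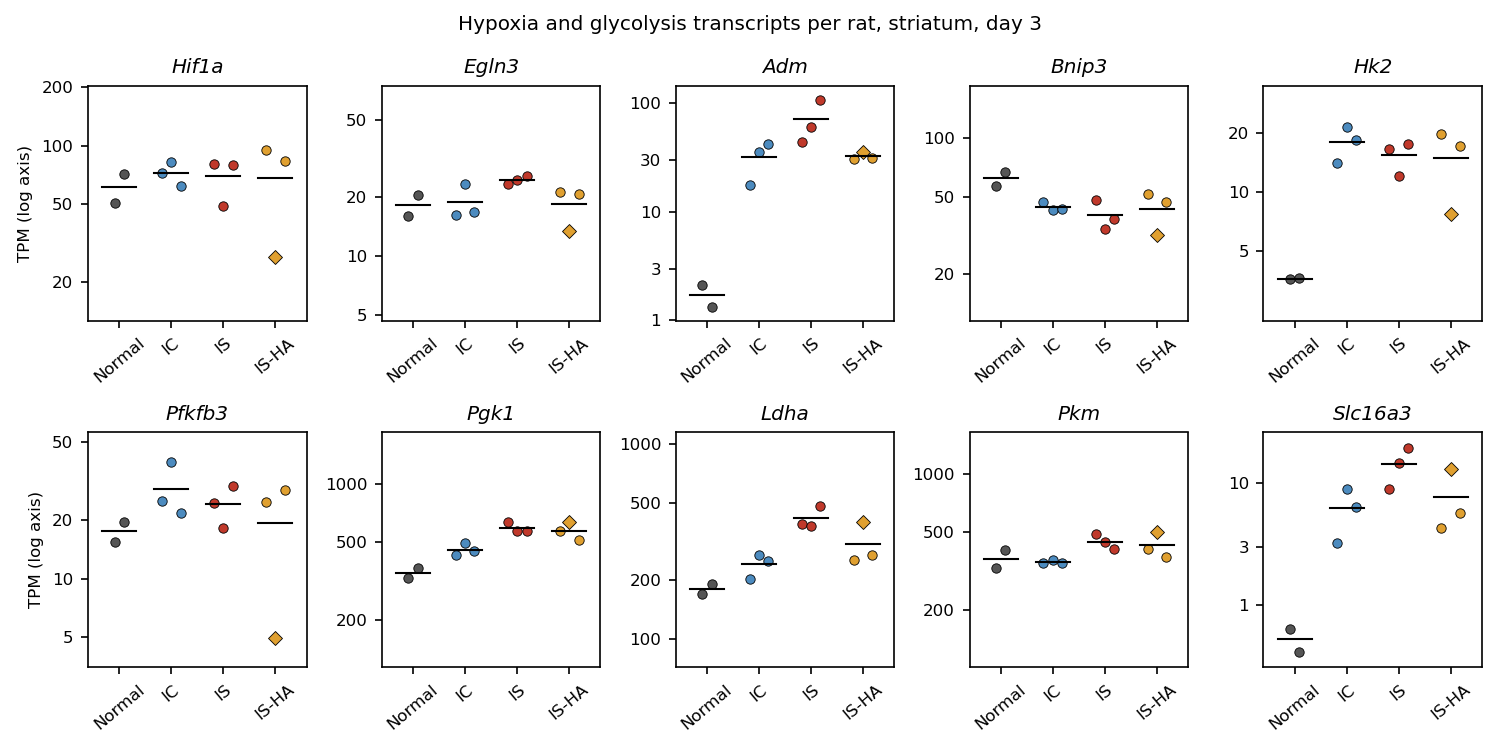
TPM of each of the 10 genes (log axis) for every rat in the Normal, IC, IS and IS-HA groups, with each point 1 rat, each line the group mean, and the diamond IS-HA replicate 2. Adm, Hk2 and Slc16a3 of all 9 hemorrhage rats lie above both Normal rats, and the diamond is the lowest IS-HA point for Hif1a, Egln3, Bnip3, Hk2 and Pfkfb3 and the highest for Adm, Pgk1, Ldha, Pkm and Slc16a3.

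Hif1a (ENSRNOG00000008292) encodes the oxygen-regulated subunit of HIF-1. Its TPM was 51.0 and 72.0 in the Normal rats, 72.4, 82.7 and 62.3 in IC replicates 2, 3 and 4, and 81.0, 49.1 and 80.0 in IS replicates 2, 3 and 4. It was 95.4, 26.8 and 83.3 in IS-HA replicates 1, 2 and 3. The 4 groups overlapped, and the lowest value of all rats was that of IS-HA replicate 2. The log2 fold change against Normal was 0.19 in IC, 0.21 in IS (95% interval -0.59 to 1.02) and 0.09 in IS-HA, and the edgeR adjusted p was 0.752, 0.647 and 0.862. In IS-HA against IS it was -0.12 (-0.84 to 0.59), and it was 0.20 without IS-HA replicate 2.

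Egln3 (ENSRNOG00000005053) encodes the prolyl hydroxylase PHD3, which marks HIF-α for destruction and is itself induced by HIF. Its mean TPM was 18.3 ± 3.19 (SD, n = 2) in Normal, 18.8 ± 3.99 (n = 3) in IC, 24.5 ± 1.15 (n = 3) in IS and 18.5 ± 4.38 (n = 3) in IS-HA. The IS rats, at 23.4, 24.5 and 25.7, lay above both Normal rats and above every IS-HA rat, at 21.4, 13.5 and 20.7. None of these differences passed the test. The log2 fold change was 0.44 in IS against Normal (SE 0.20, edgeR adjusted p = 0.0929), 0.46 in IS against IC (SE 0.18, adjusted p = 0.190) and -0.45 in IS-HA against IS (SE 0.18, adjusted p = 0.550). Without IS-HA replicate 2 the last of these was -0.37 (edgeR adjusted p = 0.187). With limma's voom and quality weights, Egln3 was called in IS against Normal (0.41, adjusted p = 0.0403).

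Adm (ENSRNOG00000027030) encodes adrenomedullin, a vasodilator peptide and a well-known hypoxia-inducible transcript. It had 23 and 14 reads in the Normal rats, or 2.13 and 1.33 TPM. It stood at 17.6, 35.3 and 41.7 TPM in IC, at 43.4, 60.5 and 107 TPM in IS, and at 30.2, 35.6 and 31.4 TPM in IS-HA. Every hemorrhage rat was above both Normal rats and every IS rat was above every IC and IS-HA rat, while IC and IS-HA overlapped. Against Normal, Adm rose by a log2 fold change of 4.13 in IC (SE 0.60, edgeR adjusted p = 0.000984), 5.37 in IS (SE 0.63, adjusted p = 0.000129) and 4.21 in IS-HA (SE 0.60, adjusted p = 0.000692), or 17.5, 41.2 and 18.5 times on the linear scale. These 3 calls held in all 24 alternative settings of the processing. In IS against IC the log2 fold change was 1.24 (0.31 to 2.16, adjusted p = 0.164), and in IS-HA against IS it was -1.16 (-2.08 to -0.23, adjusted p = 0.540). Neither passed the adjusted threshold, with or without IS-HA replicate 2, whose absence gave -1.37 in the second of them (adjusted p = 0.0889).

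Bnip3 (ENSRNOG00000017243) encodes a mitochondrial outer membrane protein of mitophagy and is a classical HIF-1 target. Its TPM was 57.0 and 67.3 in Normal, 47.3, 42.8 and 43.1 in IC, 48.2, 34.0 and 38.3 in IS, and 51.4, 31.8 and 46.9 in IS-HA. Every hemorrhage rat was below both Normal rats, and the 3 hemorrhage groups overlapped. Bnip3 was the only member that fell. Its log2 fold change was -0.54 in IC (SE 0.17, edgeR adjusted p = 0.0488), -0.62 in IS (SE 0.17, adjusted p = 0.0116) and -0.55 in IS-HA (SE 0.17, adjusted p = 0.0303). Without IS-HA replicate 2 the value in IS-HA was -0.47 (edgeR adjusted p = 0.0497). The call in IC held in 7 of 24 alternative settings and was lost in 10 of the 11 fits that left out 1 rat, all but that without IS-HA replicate 2 (adjusted p = 0.0524 to 0.292, highest without Normal replicate 3), whereas the call in IS held in 21 of 24 and was lost without Normal replicate 3 (adjusted p = 0.0893). The call in IS-HA held in 14 of 24 and was lost without Normal replicate 1 (adjusted p = 0.0882), without Normal replicate 3 (0.187) and without IS-HA replicate 3 (0.0555).

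Promoter windows were read for the members to show where hypoxia response element cores lie. The windows, from RefSeq on assembly GRCr8, span 250 bases before to 50 bases after the annotated start, and 9 of the 10 members matched, Pgk1 not. The core was searched as ACGTG or GCGTG on both strands, where a palindromic CACGTG counts on each strand. At least one core was present in 4 of the 9 windows (44.4%), namely Ldha, Bnip3, Hif1a and Pfkfb3, against 41.6% of all 33469 windows of the same length. Ldha held 6 matches in 5 separate stretches, Bnip3 4 in 3, Hif1a 3 in 2 and Pfkfb3 2 in 1. The windows of Ldha, with the most cores, of Bnip3, the member that fell, and of Adm, with the largest fold and no core in the window, are printed 5′ to 3′ on the gene strand, with the cores of either strand in capitals. They lie at chr1:106507842-106508141 on the plus strand for Ldha, at chr1:203154913-203155212 on the minus strand for Bnip3 and at chr1:174179950-174180249 on the plus strand for Adm.
Ldha: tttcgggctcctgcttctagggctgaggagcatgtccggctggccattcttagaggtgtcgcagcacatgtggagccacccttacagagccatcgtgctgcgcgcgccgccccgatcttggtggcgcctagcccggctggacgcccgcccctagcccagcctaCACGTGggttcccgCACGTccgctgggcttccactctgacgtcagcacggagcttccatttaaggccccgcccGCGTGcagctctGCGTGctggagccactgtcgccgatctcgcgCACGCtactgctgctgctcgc
Bnip3: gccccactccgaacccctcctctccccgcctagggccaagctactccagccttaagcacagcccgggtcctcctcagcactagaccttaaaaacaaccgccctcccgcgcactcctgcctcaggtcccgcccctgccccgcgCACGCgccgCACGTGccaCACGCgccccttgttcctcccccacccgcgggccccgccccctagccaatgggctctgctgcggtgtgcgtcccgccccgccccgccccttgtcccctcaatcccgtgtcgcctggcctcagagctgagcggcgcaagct
Adm: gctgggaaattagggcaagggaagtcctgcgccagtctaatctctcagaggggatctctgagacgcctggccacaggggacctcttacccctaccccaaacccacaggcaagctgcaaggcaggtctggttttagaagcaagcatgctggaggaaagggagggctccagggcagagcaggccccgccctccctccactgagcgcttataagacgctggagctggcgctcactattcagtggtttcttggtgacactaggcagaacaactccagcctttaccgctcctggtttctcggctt
The cores of Bnip3 lie between 108 and 86 bases before the start, and those of Ldha between 87 bases before and 34 bases after it. A match describes letters in this window and not a bound site, and no match says only that these letters are not in it.

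**Figure D2:**
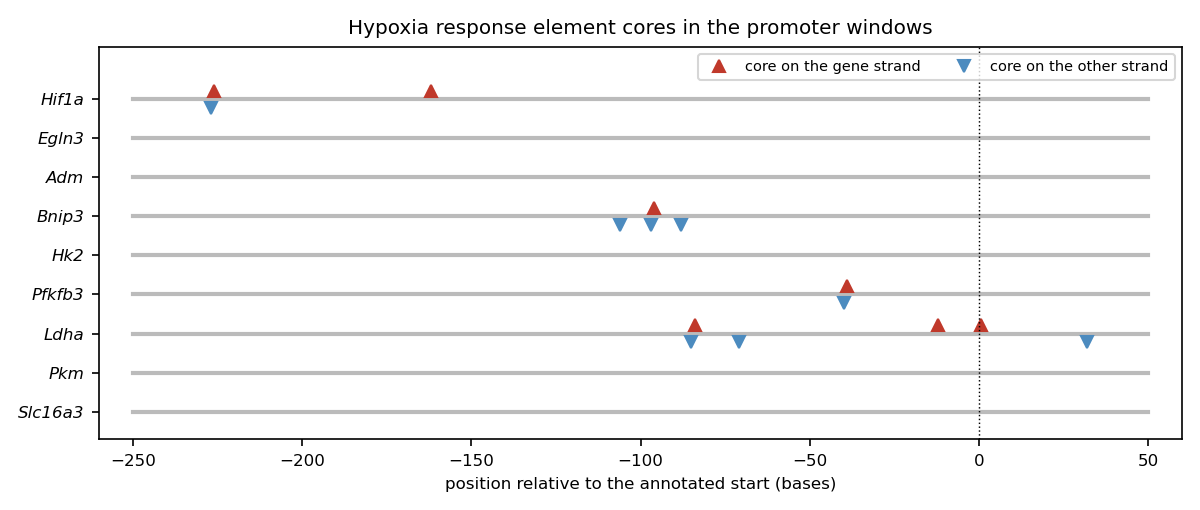
Positions of hypoxia response element cores in the 300-base promoter windows of 9 members (x axis: bases from the annotated start; triangles up, core on the gene strand; triangles down, core on the other strand). Ldha, Bnip3, Hif1a and Pfkfb3 hold 6, 4, 3 and 2 matches, and the other 5 windows hold none.

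Hk2 (ENSRNOG00000006116) encodes hexokinase 2, the inducible enzyme that traps glucose in the cell as glucose 6-phosphate. Its TPM was 3.56 and 3.64 in Normal, 14.1, 21.5 and 18.6 in IC, 16.7, 12.1 and 17.6 in IS, and 19.9, 7.69 and 17.3 in IS-HA. All 9 hemorrhage rats were above both Normal rats, and the 3 hemorrhage groups overlapped. Hk2 rose by a log2 fold change of 2.27 in IC (SE 0.33, edgeR adjusted p = 0.00106), 2.12 in IS (SE 0.33, adjusted p = 0.000685) and 2.00 in IS-HA (SE 0.33, adjusted p = 0.00165), calls that held in all 24 alternative settings. No difference between the hemorrhage groups passed the test. The log2 fold change was -0.15 in IS against IC, with an interval of -0.75 to 0.44, and -0.12 in IS-HA against IS, with an interval of -0.72 to 0.48. Without IS-HA replicate 2 the latter was 0.12 (adjusted p = 0.749).

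Pfkfb3 (ENSRNOG00000018911) encodes an enzyme that makes fructose 2,6-bisphosphate, the main activator of phosphofructokinase. It ranged from 15.4 to 19.6 TPM in Normal, 21.8 to 39.7 in IC and 18.2 to 29.7 in IS. In IS-HA it was 24.6, 4.97 and 28.4 TPM, and the value of replicate 2, which rests on 79 reads, was the lowest of all rats. Pfkfb3 passed the test in no comparison. The log2 fold change against Normal was 0.66 in IC (SE 0.49, edgeR adjusted p = 0.360), 0.49 in IS (SE 0.48, adjusted p = 0.419) and 0.06 in IS-HA (SE 0.48, adjusted p = 0.926). Without IS-HA replicate 2 the value in IS-HA was 0.47 (adjusted p = 0.231). With only the groups compared in the edgeR fit, Pfkfb3 was called in IC (0.67, adjusted p = 0.0483).

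Pgk1 (ENSRNOG00000058249) encodes phosphoglycerate kinase, which forms the first ATP of the payoff phase. Its TPM was 329 and 370 in Normal, 429, 494 and 453 in IC, 632, 568 and 573 in IS, and 573, 634 and 510 in IS-HA. Every IC rat was above both Normal rats and every IS and IS-HA rat was above every IC rat, while IS and IS-HA overlapped. Pgk1 rose in IS by a log2 fold change of 0.77 (SE 0.21, edgeR adjusted p = 0.0129) and in IS-HA by 0.73 (SE 0.21, adjusted p = 0.0266). In IC it was 0.34 (SE 0.21, adjusted p = 0.277). Without Normal replicate 1 or 3 both calls were lost, with an adjusted p of 0.0734 or 0.0785 in IS and 0.123 or 0.143 in IS-HA. The call in IS-HA was also lost with only the groups compared (0.71, adjusted p = 0.113) and with a correction for gene length chosen after seeing the data (0.44, adjusted p = 0.0606), and without IS-HA replicate 2 it held at 0.50 (adjusted p = 0.0371). In IS against IC the log2 fold change was 0.43 (0.02 to 0.85, adjusted p = 0.213), and without IS-HA replicate 2 the adjusted p of the same difference was 0.0481.

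Pkm (ENSRNOG00000011329), pyruvate kinase of muscle and brain, passed the test in no comparison. Its TPM was 329 and 404 in Normal, 347, 360 and 346 in IC, 488, 444 and 408 in IS, and 412, 501 and 374 in IS-HA. The IS rats lay above every Normal and IC rat and overlapped with IS-HA. The log2 fold change was 0.30 in IS against Normal (SE 0.23, edgeR adjusted p = 0.298) and 0.41 in IS against IC (SE 0.21, adjusted p = 0.257). Pkm shares sequence with annotated copies, so its level is uncertain: Pkml1 was listed at 6.23% to 29.0% of the Pkm counts of a rat, lowest in IS-HA replicate 2, and Pkm-ps20 at 7.89% to 9.89%. With the reads of both copies added to Pkm, a setting chosen after seeing the data, the log2 fold change was 0.31 in IS against Normal and 0.38 in IS against IC. The copy Pgk1l1 reached at most 0.582% of the Pgk1 counts and Ldhal6b at most 1.14% of those of Ldha, and Bnip3-ps3 had no read in any rat.

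Ldha (ENSRNOG00000013009) encodes the lactate dehydrogenase subunit associated with the reduction of pyruvate to lactate. Its TPM was 170 and 190 in Normal, 202, 269 and 252 in IC, 390, 381 and 483 in IS, and 255, 398 and 268 in IS-HA. Every IS rat was above every IC rat, and of the IS-HA rats only replicate 2 reached the range of IS. Ldha rose in IS by a log2 fold change of 1.24 (SE 0.32, edgeR adjusted p = 0.00878), or 2.37 times. It did not pass the test in IC (0.37, SE 0.31, adjusted p = 0.419) or in IS-HA (0.81, SE 0.31, adjusted p = 0.0700). The call in IS was lost without Normal replicate 1 (adjusted p = 0.0544) and without Normal replicate 3 (adjusted p = 0.0623), and in IS-HA Ldha was called without IS-HA replicate 1 (0.99, adjusted p = 0.0383), with library size alone (0.91, adjusted p = 0.0299) and with limma on log2(TPM + 1) (0.74, adjusted p = 0.0318). Without IS-HA replicate 2 the same difference was 0.41 (adjusted p = 0.180). Between the hemorrhage groups it was 0.87 in IS against IC (0.26 to 1.48, adjusted p = 0.156) and -0.43 in IS-HA against IS (-1.04 to 0.17, adjusted p = 0.616). Without IS-HA replicate 2 both differences were called, at 0.87 (adjusted p = 0.0241) and -0.84 (adjusted p = 0.0472).

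Slc16a3 (ENSRNOG00000036677) encodes MCT4, the monocarboxylate transporter that glycolytic cells use to export lactate. It had 41 and 26 reads in the Normal rats, or 0.640 and 0.415 TPM. It stood at 3.24, 8.97 and 6.35 TPM in IC, 8.94, 14.5 and 19.4 in IS, and 4.26, 12.9 and 5.72 in IS-HA. All 9 hemorrhage rats were above both Normal rats, and the IC and IS ranges overlapped only at their ends. Slc16a3 rose by a log2 fold change of 3.48 in IC (SE 0.72, edgeR adjusted p = 0.00765), 4.78 in IS (SE 0.76, adjusted p = 0.000727) and 3.91 in IS-HA (SE 0.74, adjusted p = 0.00329). Without IS-HA replicate 2, the highest of its group, the IS-HA value was 3.08 (adjusted p = 0.00309). Without Normal replicate 3 it was 3.14 in IC (adjusted p = 0.108) and 3.57 in IS-HA (adjusted p = 0.0502), neither of them past the threshold. The log2 fold change was 1.30 in IS against IC (0.12 to 2.48, adjusted p = 0.200) and -0.87 in IS-HA against IS (-2.05 to 0.30, adjusted p = 0.607), and the latter was -1.69 (adjusted p = 0.0573) without IS-HA replicate 2.

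In IS against IC, the comparison of hemorrhage severity, edgeR's quasi-likelihood test called 0 of the 10 members and 0% of all 15742 genes. At an unadjusted p under 0.05, 5 members were higher in IS (Egln3, Adm, Pgk1, Ldha and Slc16a3) and 0 were lower, where 10.5% of all genes were higher and 11.7% lower. The TPM ranges of 4 members (Adm, Pgk1, Ldha and Pkm) were higher in IS with no overlap, as were those of 15.4% of all genes, and 0 members were lower with no overlap, as were 18% of all genes. The members' median log2 fold change was 0.42 and that of all genes was -0.00103. DESeq2's Wald test called Ldha alone of the members (adjusted p = 0.0481), and limma's voom with quality weights called Ldha (adjusted p = 0.0266) and Slc16a3 (adjusted p = 0.0406). Those tests called 6.21% and 12% of all genes. Without IS-HA replicate 2, which is in neither group but enters the shared estimate of the spread, edgeR called Pgk1 and Ldha and 14.1% of all genes (2241 genes).

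In IS-HA against IS, the comparison of hematoma aspiration, edgeR called 0 members and 0.00635% of all genes (1 gene). At an unadjusted p under 0.05, 2 members were lower in IS-HA (Egln3 and Adm) and 0 were higher, against 3.36% and 5.58% of all genes. The same 2 members had TPM ranges that were lower in IS-HA with no overlap, against 6.37% of all genes, and 0 members were higher with no overlap, against 3.6%. Of the 10 members, only Bnip3 had a positive log2 fold change (0.07, adjusted p = 0.911), and the members' median was -0.28 against 0.05 over all genes. DESeq2's Wald test and voom called 0 members here and 0.451% and 2.73% of all genes. The edgeR fit without IS-HA replicate 2 called Ldha and 4.37% of all genes (695 genes).

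**Figure D3:**
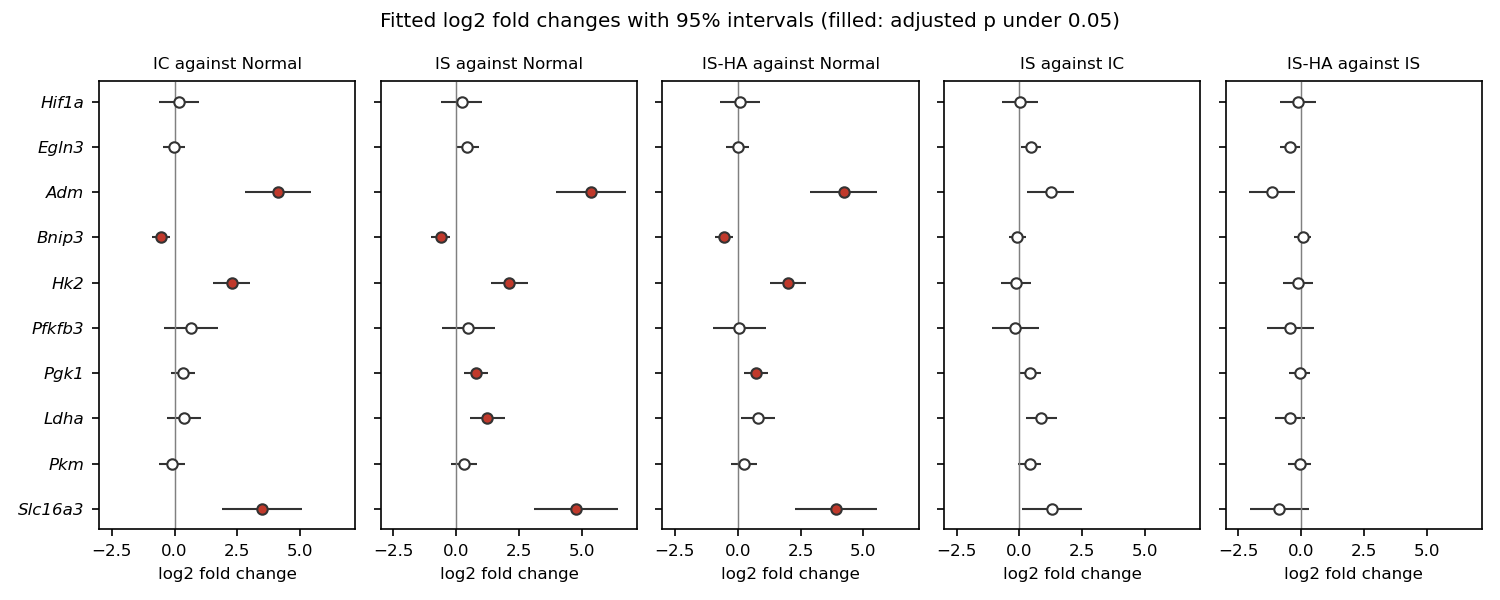
Fitted log2 fold change of each member in the 5 comparisons (x axis: log2 fold change; points: edgeR estimates; bars: 95% intervals; filled: adjusted p under 0.05). Adm, Hk2 and Slc16a3 are filled to the right and Bnip3 to the left in all 3 comparisons with Normal, and no point is filled in the 2 comparisons between hemorrhage groups.

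IS-HA replicate 2 moved the members in both directions. On the log2 scale, relative to the mean of the other 2 IS-HA rats, Pfkfb3 lay at -2.02, Hif1a at -1.36 and Hk2 at -0.89, while Slc16a3 lay at 1.75, Ldha at 0.98, Pkm at 0.73, Pgk1 at 0.60 and Adm at 0.58. By the length that the counts and TPM imply, Slc16a3 is at the 95.1 percentile of the tested genes, Pfkfb3 at 76.5 and Adm at 13.4. With the correction for gene length, 4 members in place of 5 were called in IS-HA against Normal, where Pgk1 lost its call, and 3 in place of 4 in IC against Normal, where Bnip3 did (adjusted p = 0.0516). Of all genes, 31.3% and 19.3% were then called.

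The order of the groups by mean TPM was Normal, IC, IS-HA, IS for Adm, Pgk1, Ldha and Slc16a3. For Adm the neighbours IC and IS-HA overlapped, for Pgk1 IS-HA and IS did, and for Ldha and Slc16a3 both of those neighbouring pairs did. The order was Normal, IS-HA, IS, IC for Hif1a, Hk2 and Pfkfb3, and of their neighbouring groups only Normal and IS-HA for Hk2 did not overlap. In TPM, which compares genes per length, Pgk1, Pkm and Ldha were the most abundant members in every group, with means of 350, 366 and 180 in Normal and 591, 447 and 418 in IS. Slc16a3 was the least abundant in every group, from 0.528 in Normal to 14.3 in IS.

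Within a rat, each of 4 members was set against a family gene of the same step, a ratio that library scaling does not change. The ratio of Ldha to Ldhb, the subunit associated with lactate use, was 0.320 and 0.413 in Normal, 0.477, 0.875 and 0.673 in IC, 1.30, 1.12 and 2.57 in IS, and 0.670, 1.00 and 0.767 in IS-HA. IS did not overlap with any other group, and in IS every rat held more Ldha than Ldhb transcript per length. Ldhb itself fell in IS by 0.85 on the log2 scale (edgeR adjusted p = 0.0210). The ratio of Hk2 to Hk1, the constitutive hexokinase of brain, was 0.0421 to 0.0448 in Normal, 0.191 to 0.327 in IC, 0.175 to 0.319 in IS and 0.115 to 0.248 in IS-HA, so Hk1 remained the more abundant in every rat. The ratio of Slc16a3 to Slc16a1, which encodes the widely expressed transporter MCT1, was 0.00604 to 0.00901, 0.0296 to 0.0688, 0.0752 to 0.206 and 0.0283 to 0.178 in the same order. For both pairs the hemorrhage rats lay above the Normal rats without overlap. The ratio of Pfkfb3 to Pfkfb2 was 1.20 to 1.35 in Normal, 2.03 to 4.33 in IC and 2.82 to 6.20 in IS, and in IS-HA it was 2.70, 1.19 and 2.89, with replicate 2 at the level of Normal. No test was run on these ratios.

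**Figure D4:**
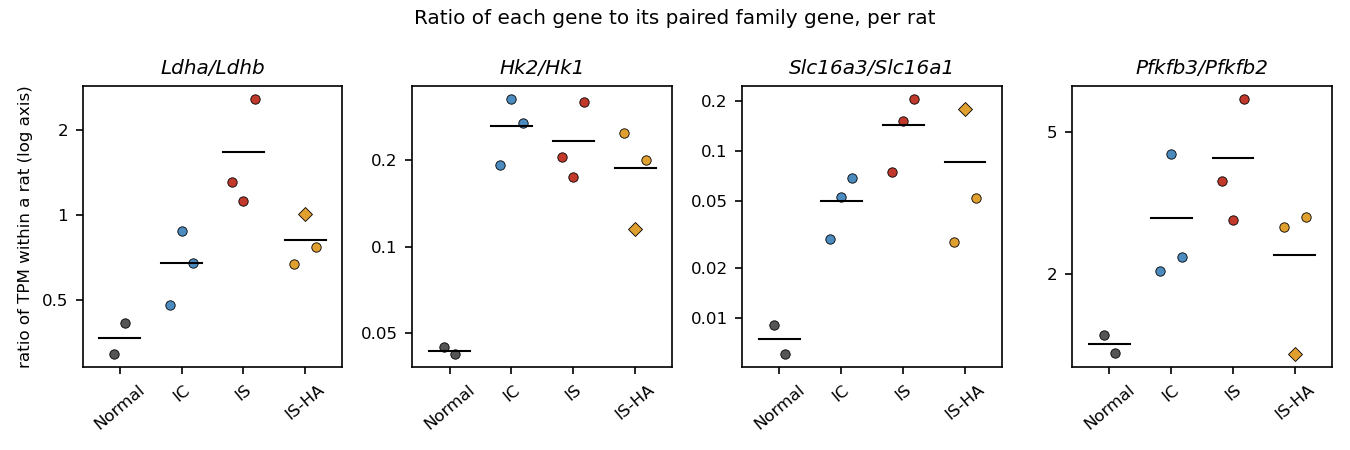
Ratio of TPM within each rat (log axis) for Ldha/Ldhb, Hk2/Hk1, Slc16a3/Slc16a1 and Pfkfb3/Pfkfb2 in the 4 groups, with each point 1 rat, each line the group mean, and the diamond IS-HA replicate 2. The IS rats of Ldha/Ldhb lie between 1.12 and 2.57, above all other rats.

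Other genes of the pathway were read from 5 lists. Of all tested genes, 13% were higher and 4.64% lower than Normal in IC, 24.8% and 24.2% in IS, and 19.5% and 12.1% in IS-HA. The counts of each list are to be read beside these shares. Among regulators of HIF, 0 of 7 tested genes were called in IC against Normal. In IS, Vhl, which targets hydroxylated HIF-α for degradation, rose by a log2 fold change of 0.50 (edgeR adjusted p = 0.0177). Arnt2, a neuronal partner of HIF-α, fell by 1.86 (adjusted p = 0.00792) and Hif1an, which encodes the asparaginyl hydroxylase FIH, fell by 0.86 (adjusted p = 0.0455). In IS-HA only Vhl was called (0.47, adjusted p = 0.0356). The median log2 fold change of the 7 genes in IS was -0.03, beside 0.02 for all tested genes.

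Of 20 other hypoxia-inducible genes, 2 were higher and 0 lower in IC, 6 higher and 2 lower in IS, and 2 higher and 3 lower in IS-HA than in Normal. The largest rises in IS were those of Angptl4, an inhibitor of lipoprotein lipase (3.68, adjusted p = 0.000320), Car9, a carbonic anhydrase (3.35, adjusted p = 0.00913), Plod2, a collagen lysyl hydroxylase (2.31, adjusted p = 0.000462), and Stc2, the secreted glycoprotein stanniocalcin 2 (1.01, adjusted p = 0.0302). Angptl4 and Plod2 were also the 2 genes higher in IC (2.33 and 1.97) and in IS-HA (3.04 and 1.68). Car9 rested on 5 and 7 reads in Normal and on 31 to 39 reads in IS. Stc2 had 28 and 47 reads in Normal and 46, 64 and 27 in IS. Car12 fell by 1.10 in IS and by 1.26 in IS-HA, and Higd1a fell by 0.58 in IS. Vegfa, the angiogenic growth factor, and Ankrd37 were named after their values were seen, as the other genes that fell in IS-HA (by 0.73 and 1.17, adjusted p = 0.0421 and 0.0353). The median log2 fold change of the list in IS was 0.00732, beside 0.02 for all tested genes.

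Of 17 other glycolytic enzymes, 1 was higher and 0 lower in IC, 4 higher and 5 lower in IS, and 3 higher and 1 lower in IS-HA. Hk3, a hexokinase known from myeloid cells, had 1 read in each Normal rat and 325 to 1188 reads in IC, 729 to 1014 in IS and 462 to 704 in IS-HA. Scaled for depth, its level in IS was 1573 times that in Normal, with a counting interval of 435 to 12997 that covers counting error only. Eno1 (0.94, adjusted p = 0.0137) and Pfkl (0.80, adjusted p = 0.00398), the broadly expressed enolase and the liver-type phosphofructokinase, rose in IS, as did Pfkfb1 (1.99, adjusted p = 0.0244), which had at most 17 reads in a rat. Eno2, the neuronal enolase, fell by 1.18 (adjusted p = 0.00507), Pfkfb2 by 1.20 (adjusted p = 0.00424), Pfkm by 1.01 (adjusted p = 0.0208) and Pfkp and Ldhb by 0.85 each (adjusted p = 0.00875 and 0.0210). The genes of the list thus moved in both directions in IS, with a median of 0.24 against 0.02 for all genes.

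Of 8 genes of glucose and lactate transport, 2 were higher in IC, 3 were higher and 2 lower in IS, and 2 were higher in IS-HA. Emb, an accessory protein of monocarboxylate transporters, rose by 1.56, 2.70 and 2.24 on the log2 scale in IC, IS and IS-HA, and Slc2a5, the fructose transporter GLUT5 known from microglia, by 2.12, 2.21 and 2.37. Slc2a1, the glucose transporter GLUT1, rose in IS (0.62, adjusted p = 0.0223). The neuronal transporters Slc2a3 (GLUT3) and Slc16a7 (MCT2) fell in IS by 1.00 and 1.07 (adjusted p = 0.0329 and 0.0397). Slc16a7 had 75 and 175 reads in Normal, or 3.50 and 8.34 TPM, and 28 to 38 reads in IS. Slc16a1 passed the test in no comparison with Normal, and its log2 fold change was 0.56 in IS.

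Of 13 genes of pyruvate entry and oxidation, 0 were higher and 2 lower in IC, 0 higher and 4 lower in IS, and 1 higher and 3 lower in IS-HA. In IS, Pdp1, the phosphatase that activates pyruvate dehydrogenase, fell by 1.81 (adjusted p = 0.00164), and Dlat and Pdha1, subunits of that complex, fell by 1.25 and 0.86 (adjusted p = 0.00129 and 0.00981). Pdk3, a kinase that inactivates the complex, fell by 0.59 (adjusted p = 0.0146). The gene higher in IS-HA was Pdk4, another such kinase, named after its values were seen (1.10, adjusted p = 0.0418). The median of the list was -0.35 in IC, -0.34 in IS and -0.19 in IS-HA, beside 0.00, 0.02 and 0.06 for all tested genes. Of the genes named from these lists, Arnt2, Eno2, Slc2a3 and Slc16a7, which fell in IS, are known from neurons. Hk3 and Slc2a5, which rose, are known from myeloid cells. The neuronal marker sum was lower and the macrophage sum higher in every hemorrhage rat than in the Normal rats. Not every marker of these 2 sums followed. The part of cell composition was not tested. In IS against IC, 0 of the 65 tested genes of the 5 lists were called by edgeR. At an unadjusted p under 0.05, 8 were higher and 6 lower, against 10.5% and 11.7% of all genes. In IS-HA against IS 0 were called, with 0 higher and 3 lower at that unadjusted p, against 5.58% and 3.36% of all genes.

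**Figure D5:**
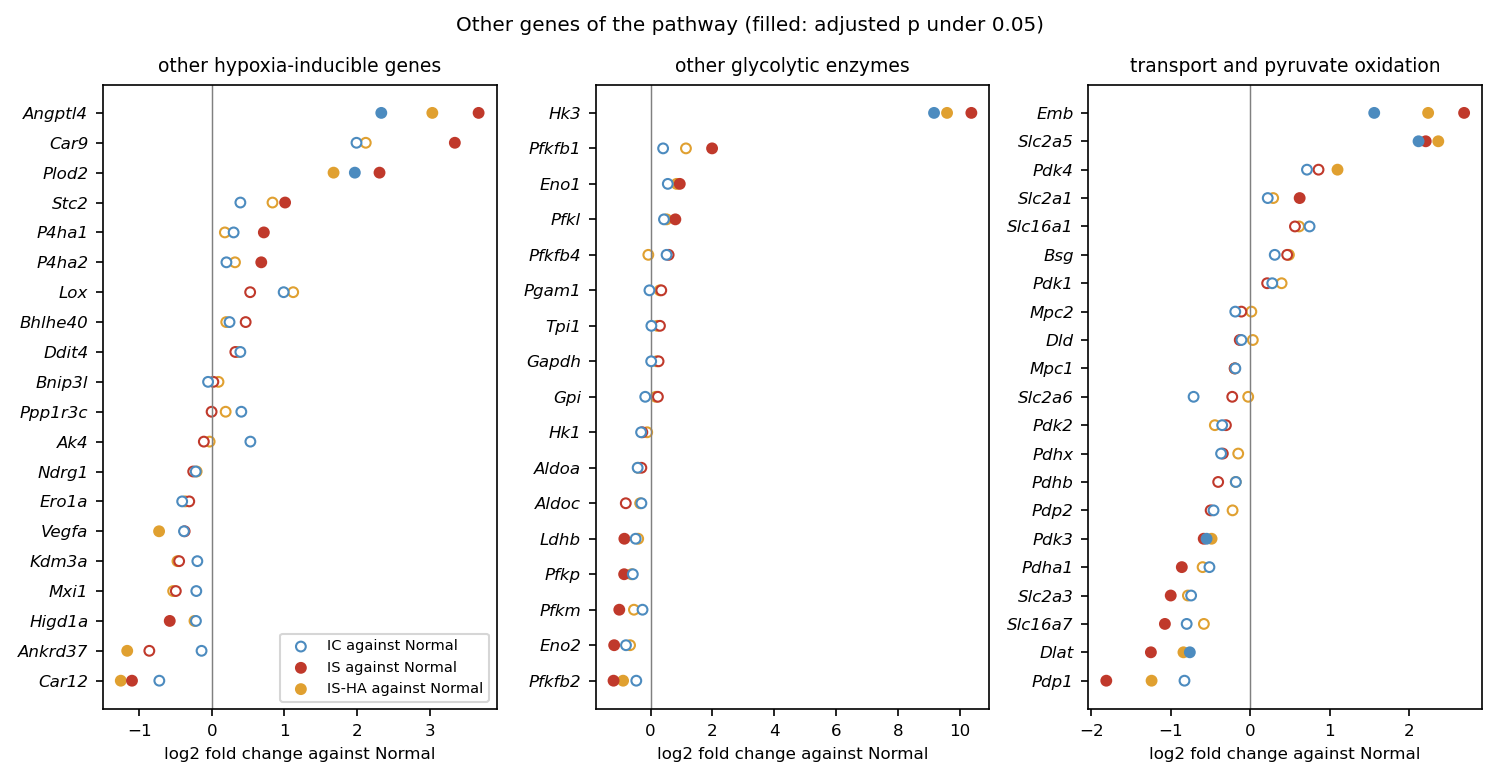
Log2 fold changes against Normal (x axis) of the other hypoxia-inducible genes, other glycolytic enzymes, and genes of transport and pyruvate oxidation, ordered by IS against Normal (blue: IC; red: IS; orange: IS-HA; filled: edgeR adjusted p under 0.05). Angptl4 and Plod2 are filled to the right in all 3 groups, and the fitted value of Hk3 depends on the prior count, since Normal holds 1 read per rat.

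By the root mean square difference of centred log2 CPM over the 11 rats, the member most like Adm was Slc16a3 (0.40) and the member most like Pkm was Pgk1 (0.19). Among the tested genes that are not members, those nearest to Adm were Pilrb1l3 (0.20) and Cd300a (0.22), those nearest to Slc16a3 were Cxcr4 (0.25) and Csf2ra (0.26), and those nearest to Ldha were Sh3bgrl3 (0.10) and Rab8a (0.13). Those nearest to Hk2 were Maf (0.19) and Nlrp1a (0.22), and those nearest to Bnip3 were Tmem94 (0.09) and Phaf1 (0.10). These values describe the rats of this series, whose groups all of the profiles share.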

How the data were processed

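RNA of the ipsilateral striatum (right side, the corresponding region in Normal) was measured on day 3 in 11 rats, and groups came from the labels (Normal n = 2, IC, IS and IS-HA n = 3 each). The authors made stranded poly(A) libraries (150-base paired ends), and their processing notes name fastp 0.20.0, HISAT2 2.1.0, SAMtools 1.9, featureCounts and the build mRatBN7.2. The deposited counts are whole numbers of reads per gene, not normalized, and the authors deposited TPM beside them. The strand setting of the counting is not given in the sources used here, so overlapping antisense genes cannot be told apart. Depth was 6701301 to 18817645 counts, and the floor of 3 counts is 0.448 CPM in the smallest library. The counting interval of Hk3 and the floor cover counting error only. The intervals of the fold changes rest on the edgeR fit.

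Genes were filtered with filterByExpr, scaled by TMM and tested with edgeR 4.0.16 (R 4.3.3) by quasi-likelihood F tests, all 4 groups in one model, with Benjamini-Hochberg adjustment over 15742 genes and a threshold of 0.05. The study's methods name DESeq2, which is an alternative here. SEs are approximated from the fold change and F, and the 95% intervals from these SEs. No pair of libraries of a group agreed within sampling noise. The labels number the rats but do not say that equal numbers share an animal or day. The 10 members and the gene lists were chosen with earlier results of these data known. All members were named, and from each list up to 4 genes per direction with the largest change in IS against Normal past the threshold, plus the genes of the ratios. One gene of the list of other hypoxia-inducible genes is not reported here and is left out of that list's counts.

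Alternatives were DESeq2 size factors, library size alone, TMM without 24 hemoglobin and mitochondrial genes, the Wald test of DESeq2 1.42.0, voom with quality weights and limma 3.58.1 on log2(TPM + 1) or log2(TPM + 0.1), no filter, a minimum of 10 counts per rat, fits of only the 2 groups compared, fits without 1 rat, a replicate block, a fold threshold, and ratios of counts. Added after seeing the data were a correction for gene length, the block with it, and Pkm with its copies. The scripts were tested on simulated data. Plots were drawn with matplotlib 3.10.9. Promoter windows are from RefSeq (GRCr8), a build other than that of the files. Arnt2 names 2 rows of the file, and the row with reads was used.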

Additional observations from a re-analysis of the deposited data

How the results depend on the processing

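Adm and Hk2 against Normal, in all 3 hemorrhage groups, and Slc16a3 in IS against Normal were called under each of the 24 alternatives. Over the members' results, 1088 kept direction and side of the threshold, 48 lost a call, 12 gained one and 57 changed sign, and none that changed sign was called to begin with. The number of members called was 4 in IC against Normal, 6 in IS against Normal, 5 in IS-HA against Normal, 0 in IS against IC and 0 in IS-HA against IS. It became 1 in IS against IC with the Wald test of DESeq2 and 2 with voom, and 3 in IS-HA against Normal with only the groups compared and also with a log2 fold change of at least 1 required. Leaving out each rat gave 2 to 4, 3 to 6, 2 to 6, 0 to 2 and 0 to 1 members in the order above. Without Normal replicate 3 the counts against Normal were 2, 3 and 2, where 5.17%, 24.6% and 9.8% of all genes were called, and without Normal replicate 1 they were 3, 4 and 3, where 7.96%, 35.1% and 16% were. With all rats the shares were 17.6%, 49% and 31.5%. With 1 Normal rat left, that rat is assumed to vary like the other groups. The cause of these moves was not tested, beyond the fewer rats in those fits. With library size alone the median log2 fold change of all genes against Normal was 0.14, 0.15 and 0.18, beside 0.00, 0.02 and 0.06 with TMM.

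The replicate numbers are not known to pair the rats. Deviations of same-numbered rats had correlations across genes of -0.34 to 0.36 for IS and IC and of -0.48 to -0.09 for IS-HA and IS. Their means were 0.03 and -0.28, beside -0.02 and 0.09 for rats with different numbers. So few pairs cannot show whether equal numbers share a day. With the replicate number as a block, 2, 3 and 3 members and 5.33%, 17.7% and 15.3% of all genes were called against Normal, and with the block and the correction for gene length, chosen after seeing the data, again 2, 3 and 3 members and 6.22%, 19.5% and 16.5% of all genes. In both settings the members called were Adm and Hk2 in IC, and Adm, Hk2 and Slc16a3 in IS and in IS-HA. Bnip3, Pgk1 and Ldha thus lost every call against Normal, and Slc16a3 lost that in IC. Under the block, Egln3 was 0.0613 in IC and 0.0815 in IS-HA against Normal, and Pgk1 was 0.0290 and Pkm 0.0321 in IS-HA against IS. Under the block with length, Egln3 was 0.0110 and 0.0109 in those comparisons, Ldha -0.0498 in IC against Normal, Pfkfb3 0.0396 in IS against IC and Pkm 0.0121 in IS-HA against IS.

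Other changes of sign were these. With library size alone, Egln3 was 0.13 in IC and in IS-HA against Normal and Pkm 0.0266 in IC. With limma on log2(TPM + 1) and log2(TPM + 0.1), Egln3 was 0.0289 and 0.0299 in IC against Normal, Hif1a -0.0156 and -0.0196 and Pfkfb3 -0.15 and -0.19 in IS-HA against Normal, and Hif1a -0.0753 and -0.0767 in IS against IC. With voom, Egln3 was 0.0643 and Pkm -0.00602 in IS-HA against Normal, Hif1a -0.13 in IS against IC, and Hif1a 0.31, Hk2 0.22 and Pfkfb3 0.11 in IS-HA against IS. With the correction for gene length, Bnip3 was 0.000476 and Pfkfb3 0.00242 in IS against IC. Leaving out each rat gave, in IC against Normal, -0.16 to 0.10 for Egln3. In IS-HA against Normal it gave -0.12 to 0.11 for Egln3, -0.18 to 0.41 for Hif1a, -0.29 to 0.47 for Pfkfb3 and -0.0279 to 0.39 for Pkm. In IS against IC it gave -0.17 to 0.0269 for Bnip3, -0.14 to 0.23 for Hif1a, -0.32 to 0.00490 for Hk2 and -0.41 to 0.0827 for Pfkfb3. In IS-HA against IS it gave -0.0686 to 0.16 for Bnip3, -0.40 to 0.20 for Hif1a, -0.33 to 0.12 for Hk2, -0.28 to 0.0666 for Pgk1 and -0.33 to 0.0802 for Pkm. Ratios of counts were higher or lower than those of TPM by the genes' lengths: the mean of Ldha to Ldhb was 0.717 in Normal and 3.26 in IS.

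With 2 Normal rats and 3 rats in the other groups, the differences of Egln3 and Pkm did not pass edgeR's test at the adjusted threshold. The smallest library, IS-HA replicate 2, has the widest counting error.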
